A study of Mus musculus with 4 samples.

Results

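The Hox genes of the mouse lie in 4 clusters, Hoxa, Hoxb, Hoxc and Hoxd, and were taken here as every row of the deposited table whose symbol was Hox followed by a cluster letter and a number, with antisense and opposite-strand transcripts left out. This gave 39 of the 27179 genes in the table: 11 in Hoxa, 10 in Hoxb, 9 in Hoxc and 9 in Hoxd. They were followed in mRNA sequencing of kidney medulla from mice of a mixed C57BL/6 strain at postnatal day 14. Control mice, wild type for Actr3, gave 2 libraries, called WT-labelled below. Mice labelled Actr3 KO, with floxed Actr3 alleles and a Cdh16-Cre transgene, gave the other 2, called KO-labelled. Actr3 encodes the actin-related protein Arp3, part of the machinery that starts branched actin filaments. The Cdh16 promoter is active in the epithelium of kidney tubules and collecting ducts, so that interstitial, endothelial and blood cells of these animals are not its target. No treatment was given in the labels, and 1 sample was taken per animal as the isolation protocol describes it.

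Hox genes encode homeodomain transcription factors that give cells their position along the body axis. Genes at the same relative place in the 4 clusters form a paralog group, numbered 1 to 13, and low numbers lie at the end of a cluster that is used early and towards the head, high numbers at the end used late and towards the tail. In the kidney, genes of group 11 act with Eya1 and Pax2 in the embryonic nephron progenitors, genes of group 10 act in the stroma, and the Hoxb7 promoter is active in the ureteric bud and collecting duct. Hox proteins bind DNA with partners of the TALE class (Pbx, Meis and Pknox), Polycomb and trithorax proteins keep the clusters silent or active, and retinoic acid induces genes of the low-numbered end.

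Each library held between 36482238 and 40784436 recovered reads, and 16253 genes with a mean of at least 10 normalized counts were tested. Actr3, the targeted gene, had 8065 and 7275 normalized counts in the WT-labelled pair and 12587 and 12480.4 in the KO-labelled pair, so that the log2 difference was 0.71, SE 0.082, with an adjusted p of 0.000494 by limma. It was therefore higher, not lower, in the libraries labelled KO, and a count over the whole gene does not show whether its floxed exons were removed; every direction below rests on the labels. The medulla was recognised by its thick ascending limb, thin limb and collecting duct genes, which were measured in all 4 libraries. In tissue RNA, fewer cells of a type and less RNA per cell cannot be told apart.

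Of the 39 Hox genes, 35 had reads in at least 1 library and 32 passed the filter and were tested. Lower levels in the KO-labelled libraries were called for 14 (43.75%) and higher levels for 2 (6.25%), and 16 were not called. Over all genes tested, 24.9% were called lower and 26.3% higher at the same adjusted p of 0.05, so the share of Hox genes called lower was above the background and the share called higher below it. The 14 that fell were Hoxa3, Hoxa5, Hoxa6, Hoxa7, Hoxa9, Hoxa10, Hoxb4, Hoxb5, Hoxc5, Hoxc6, Hoxd3, Hoxd4, Hoxd8 and Hoxd11, and the 2 that rose were Hoxb2 and Hoxb9. The median log2 difference of the 32 tested genes, KO minus WT, was -0.29, against 0.00291 over all genes tested, and 24 of the 32 lay below 0. Between the 2 libraries of a group, the absolute log2 difference of a tested Hox gene had a median of 0.117 in the WT-labelled pair and 0.162 in the KO-labelled pair, with the widest gap 0.71 for Hoxc11 (WT) and 0.394 for Hoxd9 (KO). Of the 14 genes called lower, 9 kept the call under all 15 alternative settings tried, as did both genes called higher.

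The cellular makeup of the RNA moved with the labels as well, and its part in the Hox results was not tested. Markers of the cell types that Cdh16-Cre targets were lower: 8 of 10 principal cell markers (summed level 86976 and 101320.0 normalized counts in the WT-labelled pair and 42024 and 37091 in the KO-labelled pair), 7 of 7 intercalated cell markers (23103 and 24301 against 4529 and 4239.6), 6 of 8 thick ascending limb markers, with 1 higher (446813 and 454548 against 256885 and 178191), and 6 of 6 thin limb markers (123928 and 152373 against 42344 and 30990.4). In the thick ascending limb sum, Umod had 136828 and 143709 against 203680 and 138033 and was not called. Proximal tubule markers, which belong to the cortex and outer stripe, fell in 6 of 7 cases (149407 and 96902 against 33094 and 58328). Their sum follows Kap (118424 and 58779 against 25130 and 42716). Kap, Slc7a13, Cubn and Lrp2 were higher in WT replicate 1, and Slc34a1, Slc5a2 and Slc22a6 in WT replicate 2. Podocyte markers were lower for 2 of 5 and higher for 1 (13667 and 14935 against 9642 and 9886). All 6 urothelial markers fell (3926 and 3738 against 806 and 484). Among cells that the transgene does not target, all 8 endothelial markers fell (74756 and 75952 against 25154 and 23848). All 9 macrophage markers rose (10465 and 10377 against 53395 and 52211). Interstitial fibroblast markers split, with 5 of 11 higher and 2 lower (239332 and 239779 against 489121 and 568667), where the summed level follows the collagen genes. Smooth muscle and pericyte markers were higher for 5 of 7 and lower for 1 (11436 and 16044 against 37674 and 45656). Blood cell lists were small: 1 of 3 tested granulocyte markers rose (190.1 and 164 against 261 and 345; Elane had no reads in 3 of the 4 libraries), 2 of 5 tested lymphocyte markers rose (224 and 176 against 629 and 788), and of 3 tested erythroid markers 1 rose and 2 fell (1269 and 1169 against 394 and 344). Of 7 proliferation genes 1 rose and 1 fell (9584 and 8669.5 against 9090.0 and 12054).

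Levels of different Hox genes were compared as normalized counts per kilobase of exon, with exon lengths from the GENCODE M21 annotation of GRCm38. On this scale the medulla used the middle and tail-side parts of the clusters most. Hoxb9, a thoracic and lumbar patterning gene, had the highest level in all 4 libraries, 2543 and 2671 per kb in the WT-labelled pair and 3802 and 3499 per kb in the KO-labelled pair. Next in the WT-labelled mean came Hoxd8 (2187 and 2294 per kb, against 1851 and 1657 in the KO-labelled pair), whose values overlapped those of Hoxa10 (2205 and 2109 against 1676 and 1855 per kb). In the WT-labelled mean, the next places were taken by Hoxd9 (1489 per kb), Hoxb6 (1459), Hoxb7 (1442), Hoxd10 (1416) and Hoxb8 (1318). The replicates of Hoxd9 alone (1363 and 1615 per kb) spanned the means of Hoxb6, Hoxb7 and Hoxd10. At the other end of the tested genes, Hoxd1 had 16.5 and Hoxc11 27.4 counts per kb in the WT-labelled mean. In the order of levels per kb, Hoxd4 went from place 9 in the WT-labelled mean to place 13 in the KO-labelled mean and Hoxb4 from place 10 to place 15.

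**Figure D1:**
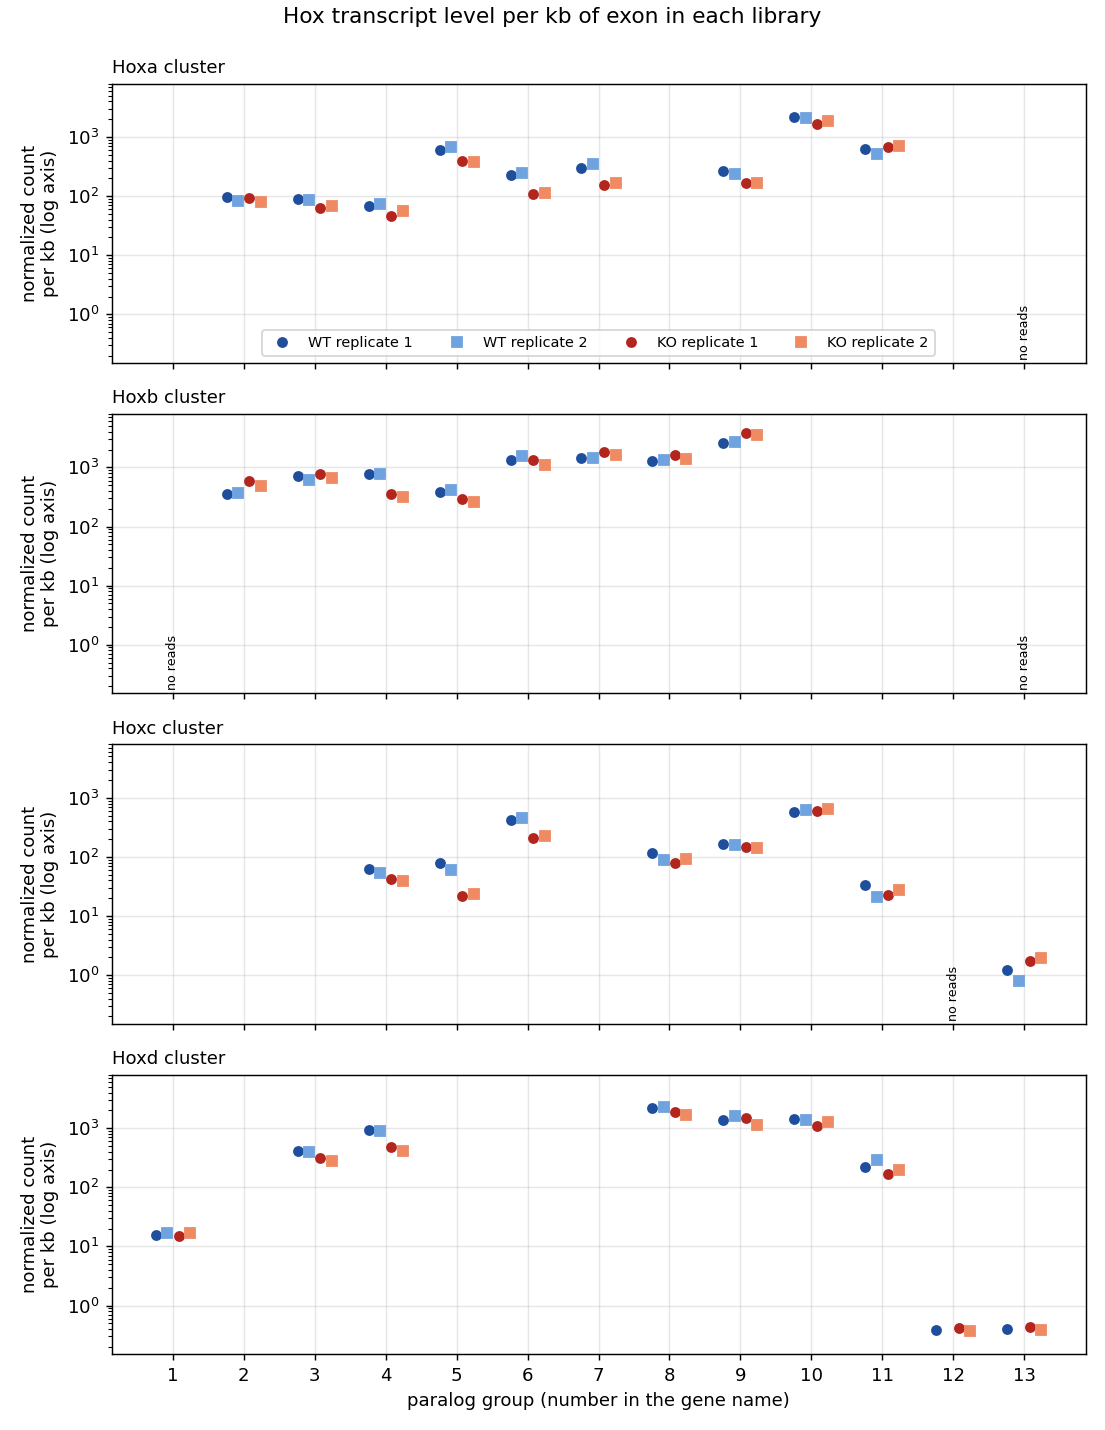
Normalized count per kilobase of exon (log axis) of Hox genes in each of the 4 libraries against their paralog group, 1 panel per cluster. Circles and squares are replicates 1 and 2, blue for WT-labelled and red or orange for KO-labelled libraries; a library with no reads has no point, and Hoxb9 lies highest, at 2607 per kb in the WT-labelled mean.

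Groups 1 to 3 hold the genes of the head-side end, which pattern the hindbrain and the neck. Of the 7 tested, 1 rose (14.3%), 2 fell (28.6%) and 4 were not called, with a median log2 difference of -0.04. Over all genes tested, 26.3% were called higher and 24.9% lower. Hoxb2, a hindbrain gene, had 1242 and 1276 normalized counts in the WT-labelled pair and 2087 and 1668 in the KO-labelled pair. Both KO-labelled values lay above both WT-labelled ones, and the mean rose 1.49-fold, from 1259 ± 24.2 to 1877 ± 297 (SD, n = 2 each; log2 0.57, SE 0.122; limma, adjusted p = 0.00773). Its paralog Hoxa2 had 173 and 145 against 167 and 142, values that overlap, with a 95% interval of the log2 difference of -0.53 to 0.45. Of the 3 genes of group 3, 2 were called. Hoxd3 fell from 1729.6 and 1676 to 1334 and 1176 (log2 -0.44, SE 0.0999; adjusted p = 0.00936) and Hoxa3 from 545 and 522 to 373 and 408 (log2 -0.45, SE 0.132; adjusted p = 0.0262), in both without overlap. Hoxb3, the neighbour of Hoxb2 and Hoxb4, had 2991 and 2601 against 3266 and 2797, an overlap, and a log2 difference of 0.12 (interval -0.15 to 0.38). The Hoxa3 call was lost without WT replicate 1 (adjusted p = 0.107), without WT replicate 2 (0.0728) and without KO replicate 1 (0.128), and with the replicate block (0.0515), and the Hoxd3 call without KO replicate 2 (0.0563). In group 1, Hoxd1 had 29.5 and 31.8 against 27.9 and 31.1 normalized counts (log2 -0.06; interval -0.83 to 0.72) and was not called, and Hoxb1 had no reads.

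Groups 4 to 7 hold more calls than either range beside them. All 12 members were tested. Of these, 8 were called lower (66.7%, against 24.9% over all genes tested) and 4 were not called. In all, 11 of the 12 log2 differences were below 0, with a median of -0.87. None was called higher by limma, edgeR or DESeq2, and 1, Hoxb7, was higher at an unadjusted p under 0.05. These genes lie in the middle of the clusters and pattern the lower neck and the thorax. Together they made up 25.9% and 26.6% of all Hox normalized counts in the WT-labelled libraries and 20.1% and 19.3% in the KO-labelled ones. The difference between this range and the others was not tested. The limits of the ranges were not part of the plan, and the counts depend on them. With group 8 added, 9 of 15 tested genes were lower (60%), with a median log2 difference of -0.54.

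Hoxb4, known for its role in blood stem cells, gave the smallest adjusted p of any Hox gene. It had 1951 and 2014 normalized counts in the WT-labelled pair and 899 and 798 in the KO-labelled pair. The groups were far apart beside their spread: the mean went from 1982 ± 44.3 to 848 ± 71.3 (SD, n = 2 each), 2.34-fold lower (log2 -1.23, SE 0.101; limma, adjusted p = 0.00012). Hoxd4, its paralog in the Hoxd cluster, had 2764 and 2592 against 1443 and 1227. It fell 2.01-fold, again with no overlap (log2 -1.01, SE 0.105; adjusted p = 0.000326). The other two paralogs had lower values in both KO-labelled libraries but were not called: Hoxa4 had 107 and 117 against 74.0 and 90.4 (log2 -0.45; interval -1.01 to 0.10; adjusted p = 0.148) and Hoxc4 159.6 and 135 against 109 and 101 (log2 -0.48; interval -0.98 to 0.02; adjusted p = 0.0985). Hoxc4 passed the threshold after quantile normalization (0.042) and with no variance trend (0.0483). Summed over its 4 genes, group 4 went from 8.98% and 8.59% of all Hox counts in the WT-labelled libraries to 4.81% and 4.52% in the KO-labelled ones, values that do not overlap.

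All 3 genes of group 5 fell. Hoxc5 had the largest difference of any Hox gene, with 245 and 188 normalized counts in the WT-labelled pair and 66.5 and 73.5 in the KO-labelled pair, 3.09-fold lower (log2 -1.60, SE 0.229; limma, adjusted p = 0.00127). Its WT-labelled pair was the wider one, yet the lower of that pair was above both KO-labelled values. Hoxa5, which is needed for lung and airway development, had 1150.4 and 1254 against 731 and 705, also without overlap (log2 -0.74, SE 0.105; adjusted p = 0.00123). Hoxb5 had 1062 and 1147 against 799 and 721 and fell 1.45-fold (log2 -0.54, SE 0.111; adjusted p = 0.00633). The group's share of Hox counts went from 4.43% and 4.58% to 3.05% and 3.06%.

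In group 6, Hoxa6 fell 2.15-fold, from 199 and 215 to 93.3 and 98.9 (log2 -1.10, SE 0.195; limma, adjusted p = 0.00337), and Hoxc6 1.99-fold, from 1002 and 1102 to 505 and 553 (log2 -0.99, SE 0.118; adjusted p = 0.000559). Hoxb6, the most abundant of the group per kb, had 2671 and 3058 against 2592 and 2124, a log2 difference of -0.28 with an interval of -0.57 to 0.00, and was not called (adjusted p = 0.0871). It passed the threshold without KO replicate 1 (0.0286). Group 7 has 2 genes, of which 1 was called. Hoxa7 fell 2-fold, from 859 and 989 to 435 and 489 (log2 -0.997, SE 0.131; adjusted p = 0.000891). Hoxb7, whose promoter is active in the ureteric bud and collecting duct, had 2214 and 2239 against 2767 and 2470.3. It was higher in both KO-labelled libraries than in either WT-labelled one. Its log2 difference was 0.23 (interval 0.02 to 0.44) and its adjusted p 0.0654, which fell to 0.0442 after quantile normalization. Hoxb7 was not called, while 8 of 10 principal cell markers fell; the difference between them was not tested.

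The sequences just upstream of some of these genes are printed because retinoic acid receptors bind the half-site AGGTCA and Hox-Pbx pairs bind sites such as TGATNNAT (N is any base), and because genes of both retinoid and TALE lists are described below. RefSeq windows on GRCm38.p6 were matched for 22 of the 39 Hox genes (24 windows, since 2 genes have 2 starts), and the 250 bases before each start were searched on both strands. Those of Hoxb4 (chr11:96318017-96318266, plus strand), Hoxd4 (chr2:74721728-74721977, plus strand) and Hoxa5 (chr6:52204588-52204837, minus strand), which fell, and of Hoxb8 (chr11:96281655-96281904, plus strand), which was not called, overlap no annotated exon. They read 5′ to 3′ on the gene's strand, with capitals for a match of either motif on either strand:
Hoxb4: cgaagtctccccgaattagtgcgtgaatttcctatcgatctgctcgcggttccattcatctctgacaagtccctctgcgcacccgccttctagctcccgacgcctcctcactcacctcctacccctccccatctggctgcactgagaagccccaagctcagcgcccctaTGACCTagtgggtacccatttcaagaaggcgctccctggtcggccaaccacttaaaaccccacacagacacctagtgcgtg
Hoxd4: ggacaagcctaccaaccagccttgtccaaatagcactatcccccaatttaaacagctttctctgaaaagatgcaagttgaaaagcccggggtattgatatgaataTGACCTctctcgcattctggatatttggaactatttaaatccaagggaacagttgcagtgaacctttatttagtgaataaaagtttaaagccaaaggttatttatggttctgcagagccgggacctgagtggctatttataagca
Hoxa5: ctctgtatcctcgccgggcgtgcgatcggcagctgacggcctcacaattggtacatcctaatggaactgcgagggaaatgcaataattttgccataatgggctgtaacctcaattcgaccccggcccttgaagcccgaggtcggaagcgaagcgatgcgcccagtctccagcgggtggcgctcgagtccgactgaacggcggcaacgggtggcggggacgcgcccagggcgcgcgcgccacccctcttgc
Hoxb8: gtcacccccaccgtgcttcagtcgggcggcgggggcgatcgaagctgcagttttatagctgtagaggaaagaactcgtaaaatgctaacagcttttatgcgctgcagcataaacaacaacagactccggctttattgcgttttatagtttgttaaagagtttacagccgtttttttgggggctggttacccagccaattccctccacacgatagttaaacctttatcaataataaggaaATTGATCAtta
Hoxb4 and Hoxd4 each have 1 half-site, in both on the opposite strand (printed as TGACCT), which starts 81 bases before the Hoxb4 start and 145 before the Hoxd4 start. Hoxb8 has 1 Hox-Pbx match, TGATCAAT, on the opposite strand. Hoxa5 has neither motif in this window. The base composition differs widely, with 28 CpG in Hoxa5, 14 in Hoxb4, 12 in Hoxb8 and 3 in Hoxd4. Over the 24 Hox windows, 6 (25%) hold AGGTCA and 4 (16.7%) hold TGATNNAT, against 14% and 7.68% of all 32851 windows in the same RefSeq table, and the median CpG number is 12.5 against 6. By call, AGGTCA is in 4 of 13 windows of genes called lower (30.8%) and 2 of 7 of genes not called (28.6%). TGATNNAT is in 1 of 13 (7.69%) and 2 of 7 (28.6%). The 4 windows of untested genes hold AGGTCA in 0 and TGATNNAT in 1. The 4 printed windows thus do not stand for the difference between called and uncalled genes. Letters that match a motif are a description and not a shown binding site.

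Groups 8 to 11 hold the most abundant Hox genes of the medulla. Of 13 tested, 1 rose (7.69%), 4 fell (30.8%) and 8 were not called, with a median log2 difference of -0.21. The share that fell was near the 24.9% over all genes tested, and the share that rose was below 26.3%. Hoxb9 had 6546 and 6876 normalized counts in the WT-labelled pair and 9785 and 9008 in the KO-labelled pair. The groups did not overlap, and the mean rose 1.4-fold, from 6711 ± 234 to 9396 ± 549.7 (SD, n = 2 each; log2 0.48, SE 0.0803; limma, adjusted p = 0.00249). Hoxa9, known for its role in blood progenitors, moved the other way, from 1458 and 1339 to 943 and 938 (log2 -0.57, SE 0.098; adjusted p = 0.00292). The other two genes of group 9 were not called: Hoxd9 had 2912 and 3449 against 3135 and 2385, which overlap (interval -0.56 to 0.13), and Hoxc9 408 and 385 against 358 and 340.1, which do not (log2 -0.18; interval -0.51 to 0.15). Hoxd9 was called lower when KO replicate 1 was left out (adjusted p = 0.0395). Group 9 as a whole, with Hoxb9 as its most abundant gene per kb, went from 20.4% and 21.3% of all Hox counts to 27.1% and 25.9%.

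In group 8, Hoxd8 fell from 6000.3 and 6296 to 5079 and 4546, without overlap (log2 -0.36, SE 0.0852; limma, adjusted p = 0.012). Hoxb8 had 3371 and 3574 against 4211 and 3722, a log2 difference of 0.19 (interval -0.02 to 0.40) that was not called. Hoxc8 had 324 and 252 against 223 and 266, with overlap (interval -0.69 to 0.23). Group 10 acts in the kidney stroma during development. Its main gene, Hoxa10, fell from 7211 and 6896 to 5482 and 6064, a small difference without overlap (log2 -0.29, SE 0.0829; adjusted p = 0.0237). Hoxd10 had 2600.2 and 2542 against 1978 and 2295 (log2 -0.27; interval -0.50 to -0.04) and just missed the threshold (adjusted p = 0.0523), while Hoxc10 had 1117 and 1196 against 1137 and 1212 (interval -0.21 to 0.26), with overlap. These calls were sensitive to single libraries. Hoxd8 lost its call without KO replicate 2 (adjusted p = 0.0841), without WT replicate 2 (0.0541) and with no variance trend (0.0614). Hoxa10 lost it without WT replicate 1 (0.0928), without KO replicate 1 (0.171), with no variance trend (0.0886) and with the replicate block (0.055). Hoxd10 gained one without KO replicate 2 (0.0313), with TMM factors (0.0497) and with the robust variance trend (0.0463).

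Group 11 is the set on which the embryonic kidney depends, since mice that lack its genes form no kidney. Of its 3 members only Hoxd11 was called. Hoxd11 had 913 and 1199 normalized counts in the WT-labelled pair and 695 and 823 in the KO-labelled pair, and the called difference was -0.47, SE 0.159, on the log2 scale (limma, adjusted p = 0.0442). The groups were separate, but the WT-labelled pair was spread widely, and without WT replicate 2 the difference was -0.27 with an adjusted p of 0.217. The call was also lost without KO replicate 1 (0.169), with no variance trend (0.117) and with no filter (0.0758). Hoxa11 had 1418 and 1176 against 1528 and 1623, with both KO-labelled values above the WT-labelled ones (log2 0.29; interval 0.01 to 0.56), and was not called (adjusted p = 0.0755); it was called higher without WT replicate 1 (0.0315). Hoxc11 was low, at 68.9 and 41.7 against 45.0 and 56.5, and its interval of -0.89 to 0.72 leaves both directions possible.

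Groups 12 and 13, the tail-side end that patterns the cloaca, genital tubercle and distal limb, had almost no reads. Hoxa13, Hoxb13 and Hoxc12 had none in any library, nor did Hoxb1 of group 1. Such a 0 allows up to 3 reads over a group, of 80795772 reads in the WT-labelled pair and 77266674 in the KO-labelled pair, for counting error only. Hoxc13 had 5 reads in the WT-labelled and 9 in the KO-labelled pair, and Hoxd12 and Hoxd13 had 1 and 2 reads each. None of these 7 genes was tested, and no fold is given for them.

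Read by cluster, Hoxa held 10 tested genes with 6 lower (60%, median log2 difference -0.45) and Hoxd 7 with 4 lower (57.1%, -0.36). Hoxb held 8 with 2 higher and 2 lower (25% each, 0.15) and Hoxc 7 with 2 lower (28.6%, -0.23). The shares of Hoxb and Hoxc were near those over all genes tested, 26.3% higher and 24.9% lower, except that no Hoxc gene was called higher. The total over all Hox genes was 55481 and 56577 normalized counts in the WT-labelled pair and 52441 and 49016 in the KO-labelled pair, 1.10 times higher in the former. Hoxb was the only cluster whose share of this total was larger in both KO-labelled libraries. It made up 39.7% and 40.3% of Hox counts in the WT-labelled pair and 50.4% and 47.6% in the KO-labelled pair. Hoxd went from 30.6% and 31.4% to 26.1% and 25.5%, Hoxa from 23.7% and 22.5% to 18.9% and 21.7% and Hoxc, the smallest contributor, from 6% and 5.84% to 4.67% and 5.32%. Within Hoxb, Hoxb4 and Hoxb5 fell while Hoxb2 and Hoxb9 rose. The ratio of Hoxb4 to Hoxb9 counts was 0.298 and 0.293 in the WT-labelled pair and 0.0919 and 0.0886 in the KO-labelled pair, and that of Hoxb5 to Hoxb9 0.162 and 0.167 against 0.0817 and 0.08. The ratio of Hoxb4 to its direct neighbour Hoxb3 was 0.652 and 0.774 against 0.275 and 0.285. Ratios were also lower in both KO-labelled libraries in Hoxd for Hoxd4 over Hoxd3 (1.6 and 1.55 against 1.08 and 1.04), in Hoxc for Hoxc5 over Hoxc10 (0.22 and 0.157 against 0.0585 and 0.0607) and in Hoxa for Hoxa7 over Hoxa11 (0.606 and 0.841 against 0.285 and 0.301). These pairs were chosen after their values were seen, and the ratios are a description of unequal change within a library. Exon overlaps with other genes, given below, leave the counts behind several of these ratios uncertain, above all that of Hoxd4 to Hoxd3.

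**Figure D2:**
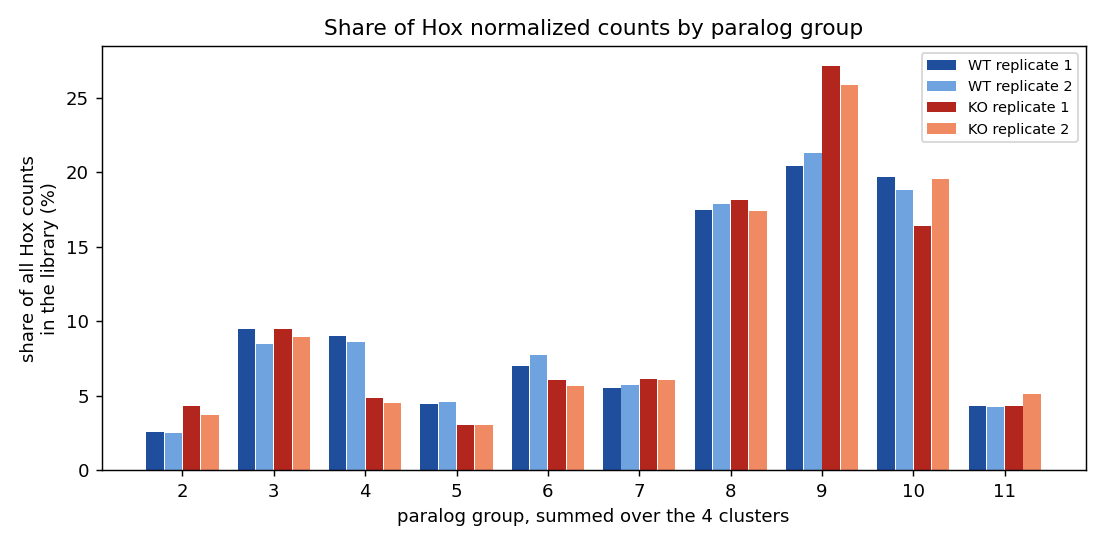
Share of all Hox normalized counts in a library (percent, vertical axis) taken by paralog groups 2 to 11, each summed over the 4 clusters, 1 bar per library, WT-labelled in blue and KO-labelled in red and orange. Group 4 took 8.98% and 8.59% in the WT-labelled pair and 4.81% and 4.52% in the KO-labelled pair, and group 9 took 20.4% and 21.3% and 27.1% and 25.9%.

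The clusters span 105.5 kb on chromosome 6 (Hoxa, chr6:52155367-52260880), 173.9 kb on chromosome 11 (Hoxb, chr11:96194316-96368254), 115.7 kb on chromosome 15 (Hoxc, chr15:102921131-103036856) and 96.9 kb on chromosome 2 (Hoxd, chr2:74668225-74765142) in GRCm38.p6. Of the nearest 2 protein-coding genes on each side of a cluster, several were called, in both directions. Such calls were common, since 26.3% of all genes tested were called higher and 24.9% lower. The neighbours with known roles include Skap1 and Skap2, adaptor genes of blood cells, and Cbx5, a heterochromatin gene. Beside Hoxa, Skap2 and Snx10 rose (log2 0.64 and 2.00; limma, adjusted p = 0.000669 and 0.000217) and Hibadh fell (-0.68; 0.000342). Skap1 beside Hoxb rose (1.01; 0.00603), and Cbx5 beside Hoxc and Mtx2 beside Hoxd fell (-0.43 and -0.32; 0.0033 and 0.0302). Mtx2 lost its call without WT replicate 1, WT replicate 2 or KO replicate 2, with no variance trend and with the replicate block. The neighbours Ttll6, Snx11, Atp5g2, Calcoco1, Smug1 and Lnpk were not called. Evx1, Evx2 and Calcoco2 were listed at 0 in all 4 libraries, and Gm50595 was not analysed here.

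Hox transcripts overlap one another and their antisense partners, and the strand setting of the counting is not given in the sources used here. In GENCODE M21, exons of 10 Hox genes overlap an exon of a gene on the opposite strand. Those of 9 overlap an exon of a gene on the same strand. Same-strand overlap was largest for Hoxd3 and Hoxd4 (62.3% and 52.3% of their exon bases), so the split of reads between this pair is uncertain. The Hoxd4 to Hoxd3 ratio and the place of Hoxd4 in the order of levels rest on that split. Hoxc5 and Hoxc10 share 166 exon bases on the same strand (5.37% and 8.70% of their exon bases), so their ratio has a like limit. Opposite-strand overlap was largest for Hoxb3 (52.9%), Hoxa11 (35.0%), Hoxb2 (27.3%), Hoxa3 (25.4%) and Hoxa7 (20.4%). Of the 14 genes that fell, 6 share no exon bases with another gene: Hoxa5, Hoxa6, Hoxa10, Hoxb4, Hoxc6 and Hoxd8. By gene coordinates, Hoxb4 still lies within the span of Hoxb3, and Hoxa5 and Hoxa6 within that of Hoxa3, on the same strand.

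Of 9 TALE partners of Hox proteins tested, 2 rose (22.2%, near the 26.3% over all genes tested) and none was called lower by limma (2 at an unadjusted p under 0.05; edgeR and DESeq2 each called 1), with a median log2 difference of 0.14. Meis3 went from 269.9 and 229 to 468 and 479.5 normalized counts (log2 0.93, SE 0.154; adjusted p = 0.0025) and Pknox2 from 555 and 523 to 964 and 1052 (log2 0.90, SE 0.114; adjusted p = 0.000733), both without overlap. Meis2 had 3225 and 3457 against 2485 and 3061 (log2 -0.28; adjusted p = 0.0796) and was called lower without KO replicate 2 (0.0173), and Pknox1 had 1314 and 1416 against 1521 and 1771 (log2 0.27; adjusted p = 0.0766).

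Polycomb genes, whose products keep Hox genes silent, showed 8 of 26 higher (30.8%) and 4 lower (15.4%), with a median log2 difference of 0.07; over all genes tested, 26.3% were higher and 24.9% lower. Cbx2, which reads the repressive histone mark, rose 1.99-fold, from 513 and 525 to 1115 and 951 normalized counts (log2 0.99, SE 0.124; limma, adjusted p = 0.000706). Both KO-labelled values were above both WT-labelled ones. Rnf2, a ubiquitin ligase, rose from 3179 and 2901 to 4176 and 4351 (log2 0.49, SE 0.0829; adjusted p = 0.00275), and its relative Ring1 fell from 713 and 806 to 564 and 498 (log2 -0.52, SE 0.131; adjusted p = 0.015). The methyltransferase genes also parted: Ezh2, typical of dividing cells, rose from 1365 and 1132 to 1760.1 and 1802 (log2 0.52; adjusted p = 0.00804) and Ezh1 fell from 4003 and 4187 to 3330.3 and 3074 (log2 -0.36; adjusted p = 0.00991). Phf1 fell from 1523 and 1442 to 1053 and 982 (log2 -0.54; adjusted p = 0.00341), and Jarid2, the remaining gene called lower, from 3664 and 3513 to 2982 and 3114 (log2 -0.24; adjusted p = 0.0395). Jarid2 was called in none of the fits that left out a library. With no variance trend 4 Polycomb genes were higher and 2 lower. Without single libraries 4 to 6 were higher and 1 to 3 lower. Ring1 lost its call without WT replicate 2 (0.0839) and without KO replicate 2 (0.0702), and Ezh1 without KO replicate 2 (0.067) and with no variance trend (0.0509). Of 11 trithorax and histone demethylase genes, which keep Hox genes active, 1 of each direction was called (9.09% each, below the shares over all genes tested): Men1 rose (log2 0.29; adjusted p = 0.0218) and Kdm6a fell (log2 -0.28; adjusted p = 0.0176), with a median of 0.02 over the list. Neither was called with no variance trend or with the replicate block, nor when either KO library was left out; Men1 also lost its call without WT replicate 1 (0.0753) and Kdm6a without WT replicate 2 (0.0629).

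The axial signals that act upstream of Hox genes held the largest single difference of the 5 lists. Of 18 genes, 13 were tested, 4 rose and 4 fell (30.8% each, near the 26.3% and 24.9% over all genes tested), with a median log2 difference of -0.10. The 3 genes for enzymes that make retinoic acid all rose. Aldh1a2, the main such enzyme of the embryo, had 729.8 and 659 normalized counts in the WT-labelled pair and 7051 and 7258 in the KO-labelled pair, 10.3-fold higher (log2 3.36, SE 0.0885; limma, adjusted p = 2.9e-06). Aldh1a3 went from 1183 and 1426 to 4721 and 3864 (log2 1.72, SE 0.131; adjusted p = 8.6e-05) and Aldh1a1 from 396 and 406 to 1026 and 929 (log2 1.28, SE 0.119; adjusted p = 0.0002). The groups did not overlap in any of the 3. On the side of the response, the receptor gene Rarb, itself induced by retinoic acid, fell from 3602 and 4188 to 2064 and 2038 (log2 -0.92, SE 0.0954; adjusted p = 0.000313), and Cyp26b1, for an enzyme that degrades retinoic acid, fell from 236 and 172 to 49.3 and 55.6 (log2 -1.92, SE 0.25; adjusted p = 0.000837). The receptor gene Rara rose from 1268 and 1445 to 2235 and 1974 (log2 0.63, SE 0.109; adjusted p = 0.00289). Among receptors for Gdf11 and activin, Acvr2a (log2 -0.30; adjusted p = 0.0144) and Acvr2b (log2 -0.65; adjusted p = 0.0262) fell, while Gdf11, the ligand that promotes tail-side Hox genes, had 599.8 and 561 against 492 and 593, with overlap. Both receptor calls were lost when WT replicate 1 or KO replicate 1 was left out, with adjusted p between 0.0521 and 0.114 in those fits, so that 2 genes of the list were then lower. Acvr2a also lost its call without KO replicate 2 (0.0645) and with no variance trend (0.0543), and Acvr2b without WT replicate 2 (0.116). Cdx2 and Cdx4, direct activators of Hox genes in the early embryo, had no reads. Cdx1, of the same family, had 0 and 0 against 3.22 and 1.88 normalized counts and was under the filter. With no filter on low values, 5 genes of the list were called higher by limma, against 4 in the main fit.

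The metanephric list holds 12 genes of kidney development, of the ureteric bud as well as of nephron progenitors. Of these, 11 were tested. Lower levels were called for 6 (54.5%, against 24.9% over all genes tested) and higher levels for 2 (18.2%, against 26.3%). DESeq2 called 4 lower and 1 higher. The list had a median log2 difference of -0.78. Itga8, an integrin gene activated by group 11 proteins in the embryonic kidney, fell 5.72-fold, from 11690.3 and 9277 to 1591 and 2073 normalized counts (log2 -2.52, SE 0.154; limma, adjusted p = 3.7e-05). Wnt11, a signal of the ureteric bud tip, fell from 1802 and 1829 to 748 and 781 (log2 -1.25, SE 0.0933; adjusted p = 8.0e-05). Pax2, which marks collecting duct and nephron progenitors, fell from 6631 and 5479.8 to 3053 and 2441 (log2 -1.14, SE 0.135; adjusted p = 0.000544), and Sall1 from 6008 and 6560.3 to 3800.1 and 3493 (log2 -0.78, SE 0.0857; adjusted p = 0.000388). In these 4 genes the groups did not overlap. Ret, the receptor of the bud, rose from 112 and 96.4 to 201 and 175 (log2 0.84; adjusted p = 0.0132; not called without WT replicate 2, 0.0637, or KO replicate 1, 0.0702), and its ligand gene Gdnf from 10.8 and 17.9 to 32.2 and 43.3 (log2 1.36; adjusted p = 0.03). Eya1 and Osr1 fell at low levels, from 28.6 and 30.8 to 11.8 and 9.42 (adjusted p = 0.0217) and from 51.2 and 48.7 to 19.3 and 30.1 (adjusted p = 0.0457). Calls at such levels were fragile: DESeq2 called neither Eya1 (0.108), Osr1 (0.154) nor Gdnf (0.101), and each lost its call without 1 or more single libraries. Six2, the marker of nephron progenitors, had 5.91 and 14.9 against 10.7 and 6.59 and was under the filter.

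**Figure D3:**
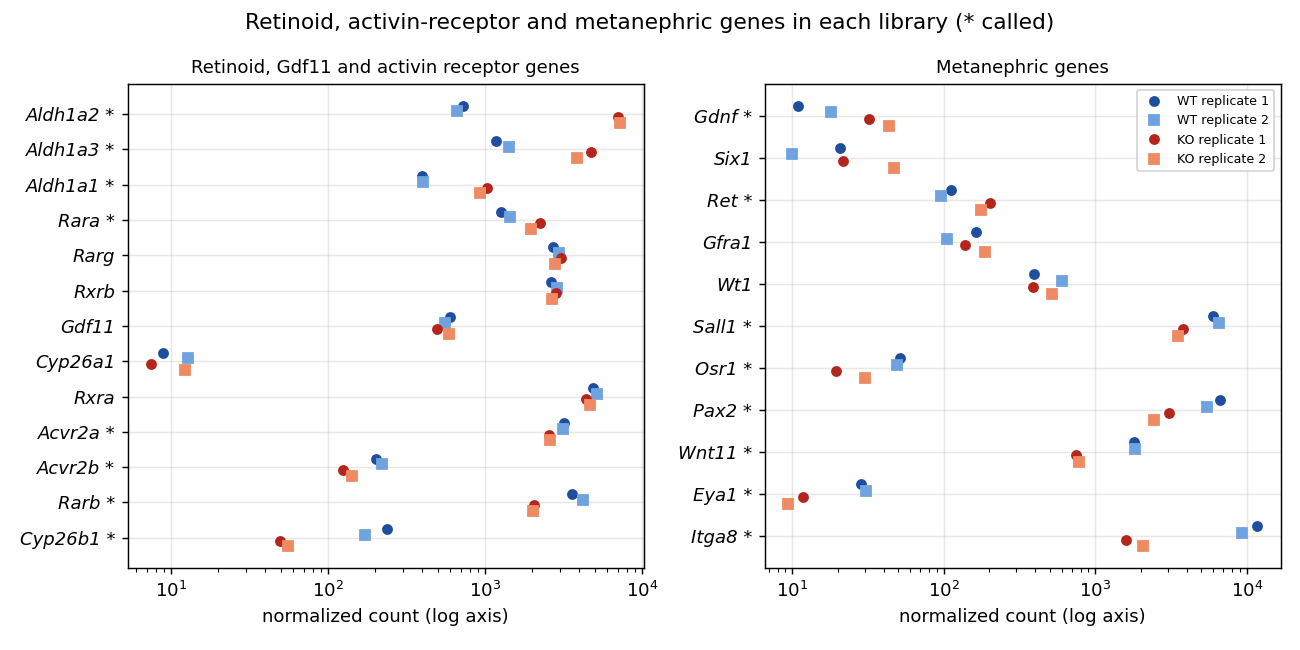
Normalized counts (log axis) in each library of the tested genes of the axial signal list (left) and the metanephric list (right), ordered by log2 difference with the highest on top; an asterisk marks a called gene. Aldh1a2 stands apart on the left, at 729.8 and 659 in the WT-labelled pair and 7051 and 7258 in the KO-labelled pair, and Itga8 is lowest on the right.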

How the data were processed

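In the deposited table each gene has 1 signal value in every library, a read count that the authors divided by 1 size factor per library: every value was a whole multiple of its column's step within 0.001 (100% in each library). The submitters' processing notes name the builds mm10 and GRCm38 and the tools DESeq2 2.11.40.7, featureCounts 2.0.1, HISAT2 2.2.1 and fastp 0.20.1. Not given in the sources used here are the annotation, the strand setting and how multiply mapped reads were counted. Reads recovered per library were 40453242 and 40342530 (WT) and 36482238 and 40784436 (KO), and intervals and floors from them cover counting error only. Replicates differed by more than sampling noise (chi-square per degree of freedom 22.3 and 16.9), so no library was a copy.

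Groups and replicate numbers came from the sample titles. limma 3.58.1 (R 4.3.3) with a variance trend was fitted to log2(value + 1) of every gene with a mean of at least 10, two-sided, with Benjamini-Hochberg adjustment over the 16253 genes and a threshold of 0.05; folds are ratios of mean normalized counts, while log2 differences include the pseudocount. An exact permutation test of 2 against 2 cannot go below 0.333. edgeR 4.0.16 and DESeq2 1.42.0 on the recovered reads, pseudocounts of 0.5 and 5, a minimum mean of 50 or none, quantile and TMM scaling, other variance models, a replicate block and leaving out each library were the alternatives. The fit code was tested on simulated data.

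The members, 5 pathway lists and 15 marker lists were chosen with earlier results of these data known. Every Hox gene was accounted for. For every pathway list the 4 genes of lowest adjusted p and those in counts of 5 or fewer were to be named. Gdf11, Cdx1, Cdx2, Cdx4, Eya1, Osr1 and Six2 were added after their values were seen, as was the AGGTCA motif. Some genes that the rule selects are not reported here. Protein sequences were not used here, so a planned comparison of homeodomains was not made.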

Additional observations from a re-analysis of the deposited data

How the results depend on the processing

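The number of Hox genes called lower was 14 and stayed between 11 and 15 over the 15 alternatives: 15 with quantile normalization, TMM factors or a robust variance trend, 14 with edgeR and DESeq2, 13 with no filter, 12 with no variance trend, 12 with the replicate block and 11 to 13 without single libraries. The number called higher was 2 or 3, and 2 with the replicate block. The replicate differences of the 2 groups had a correlation of -0.056 across genes. This value shows no strong effect shared by replicate number, but it cannot exclude that the numbers pair the samples. The sign of the log2 difference turned without single libraries for 4 genes that were not called, with ranges of -0.17 to 0.088 for Hoxa2, -0.027 to 0.071 for Hoxc10, -0.44 to 0.27 for Hoxc11 and -0.13 to 0.0196 for Hoxd1. Among the lists, TALE genes lower numbered 1 (main value 0) with a pseudocount of 5, a minimum mean of 50, TMM factors, edgeR and DESeq2, and 0 to 1 without single libraries. Polycomb genes numbered 4 higher and 2 lower with no variance trend, and 4 to 6 higher and 1 to 3 lower without single libraries. Trithorax genes numbered 0 higher and 0 lower with no variance trend and with the replicate block, and 0 to 1 each without single libraries. Axial signal genes lower numbered 2 to 3, and metanephric genes higher 1 to 2, without single libraries; metanephric genes higher also numbered 1 with a minimum mean of 50, which leaves Gdnf untested, and with DESeq2. Where no cause is given, the cause was not tested. The median of all genes moved by no more than 0.02 under any setting. A library left alone in its group was taken to vary as the other pair does. With 2 libraries a group, differences as small as those of Hoxd10, Hoxb7 and Hoxa11 lay near the limit of detection, and separate animals are known from the protocol alone.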
